A study of Mus musculus with 4 samples.

Results

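The comparison described here is that of TAC hearts with sham hearts at 8 weeks after surgery, across the protein-coding genes of the mouse. Transverse aortic constriction (TAC) is an operation in which the aortic arch is narrowed, so that the left ventricle pumps against a raised pressure, and the sham operation leaves the aorta open. A gene was taken in when at least 1 of its probes was well above background on both 8-week arrays. This held for 13811 of the 19769 protein-coding genes that had a probe.

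The study hybridized total RNA of hearts from male C57BL/6J mice to 4 single-color microarrays (Agilent SurePrint G3 Mouse GE), 1 each for sham and TAC at 2 and at 8 weeks. The labels do not say which parts of the heart were taken. The 8-week groups carried an age of 16 weeks in the sample labels and the 2-week groups one of 10 weeks, whereas the methods place the surgery at an age of 12 weeks. The study took 2 weeks to stand for the hypertrophic response and 8 weeks for the heart failure phase. No genotype, drug or transgene separated the groups. Each array held RNA pooled from 4 to 6 mice, with 500 ng from each, so each ratio below is that of 1 pool to 1 other pool. There was no replicate check, the spread between mice could not be measured, and no p-value is given. Signals are array intensities in units of the 75th percentile of each array, so that a signal of 1 is the level of that percentile. The log2 ratio is always TAC over sham. The only error that could be measured was that between spots of the same probe, and the SD of the log2 ratio of 2 such spots was 0.15. A gene is said to have risen or fallen when its ratio passed 2-fold, which is a log2 ratio of 1 in size. The tissue is a mixture, so more or fewer cells of a type and more or less RNA per cell cannot be told apart.

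Pressure overload makes heart muscle cells grow and switch on genes of the fetal heart, among them the natriuretic peptides, slow myosin and skeletal actin. Fibroblasts between the muscle cells lay down collagen and other matrix, which stiffens the wall. In the adult heart most ATP comes from the oxidation of fatty acids in mitochondria, and genes of that pathway, of calcium cycling and of potassium currents are commonly found at lower levels in failing hearts.

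At 8 weeks, 260 genes (1.88% of those measured) were over 2-fold higher in the TAC pool and 122 (0.883%) were over 2-fold lower. The same counts at 2 weeks were 125 (0.915%) and 75 (0.549%) of 13663 genes. Between the sham arrays, 46 genes (0.338% of 13602) were over 2-fold higher at 8 weeks than at 2 weeks and 31 (0.228%) were lower. These last counts describe pools without constriction, which also differ in age. The median log2 ratio over all genes at 8 weeks was -0.01, with an interquartile range of 0.35. Of all genes, 48.8% had a ratio above 0 and 51.2% below it. The list counts below are to be read beside these shares and the 1.88% and 0.883% past 2-fold. All 42 lists were drawn up with earlier results of these data known, so their counts give no independent support. Without scaling between the arrays the median over all genes was 0.16. The share of rises among all genes past 2-fold then went from 68.1% to 82.4%. Of the 122 falls, 23 came from genes whose signal on the sham 8-week array alone was over 2-fold above each of the other 3 arrays. Those 23 included 11 of the 15 largest falls, and the values below are given with that in view. Without them 99 falls were left. Dim genes carried many of the calls. With another background correction, normexp, which pulls the ratios of dim probes towards 0, 123 genes were past 2-fold higher and 32 lower. Among the genes described below, the rises of Fhl1, Uchl1, Il11, Nox4, Inhba, Igfbp2, Igfbp7, Sox9, Cfb, Clec4d, Aspn, Adamts2, Adamts4, Fos, Maff, Myc, Mthfd2 and Tubb2b then stayed under 2-fold. So did the falls of Kcnd2, Adrb3, Mas1, Aldh1l2 and Pdp2, and, of the 15 largest falls, those of Cdc6, Nat8l, Nxnl2 and Zfp85.

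**Figure D1:**
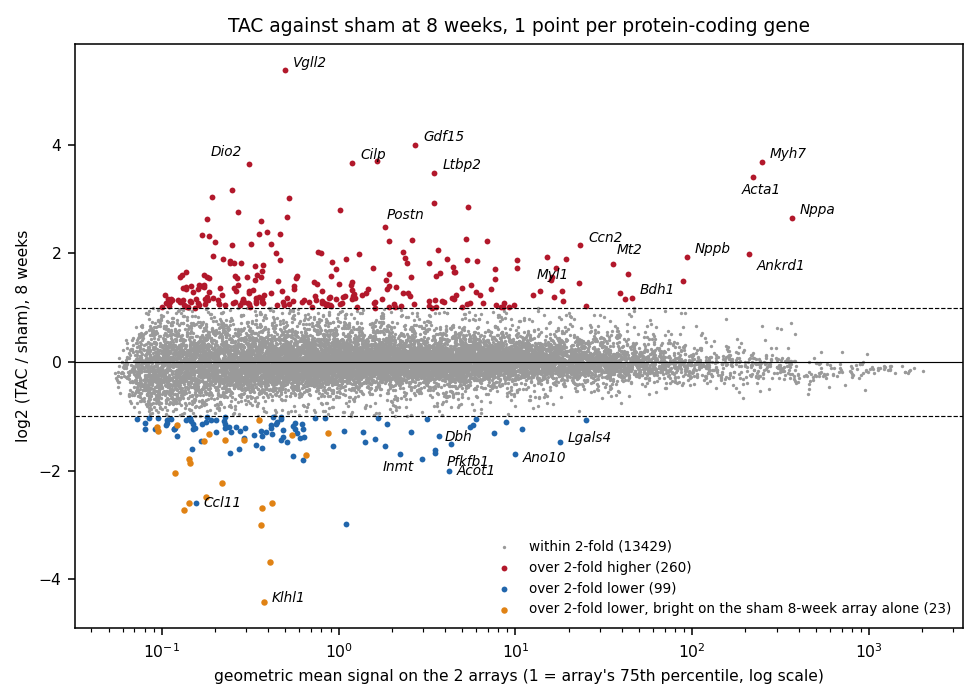
Log2 ratio of TAC to sham at 8 weeks (vertical axis) against the geometric mean signal on the 2 arrays (horizontal axis, log scale, in units of the array's 75th percentile), 1 point per gene. The dashed lines mark 2-fold, red points are the 260 rises, blue points 99 of the falls, and orange points the 23 falls of genes that were bright on the sham 8-week array alone. The rises reach the brightest part of the range (Myh7, Acta1, Nppa), whereas the orange points lie at low signal.

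All 11 measured genes of the list of fetal and hypertrophy genes rose, with a median log2 ratio of 1.94, beside -0.01 over all genes. The twelfth, Nppc, was not well above background on either array. With the normexp background 9 of the 11 passed 2-fold. This list was drawn up from what is known of hypertrophy, with earlier results of these data also known. Its direction is part of its definition, so the count gives no independent support. Nppa encodes atrial natriuretic peptide, a hormone that promotes salt excretion. Its signal was 147 in the sham pool and 922 in the TAC pool, a 6.28-fold rise. Nppb, which encodes brain natriuretic peptide, had 47.7 in sham and 183 in TAC (3.84-fold). Myh7 encodes the slow beta-myosin heavy chain of the sarcomere, and went from 69.3 to 895, or 12.9-fold. The skeletal actin gene Acta1 had a signal of 67.9 in sham and 723 in TAC (10.6-fold). The sham signals of these 4 genes at 2 weeks, between 41.3 for Nppb and 189 for Nppa, differed from their own sham signals at 8 weeks by less than 1.5-fold.

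Acta1 is a gene whose promoter is known for binding sites of serum response factor (the CArG box) and of TEAD factors (the MCAT element, CATTCC). The 250 bases before the start are shown for 4 genes of this list that hold an MCAT element on one strand or the other. These genes were picked for holding it, and its part in their rise was not tested. The sequences are taken from RefSeq (GRCm38.p6) and are written 5′ to 3′ on the gene's strand. The CArG box and the MCAT element or its reverse complement GGAATG are in capitals. The Acta1 sequence is chr8:123894776-123895025 (minus strand), that of Nppb chr4:147985650-147985899 (plus strand), that of Ankrd1 chr19:36119845-36120094 (minus strand) and that of Myh7 chr14:54994627-54994876 (minus strand, 1 of 2 windows listed for this gene).
Acta1: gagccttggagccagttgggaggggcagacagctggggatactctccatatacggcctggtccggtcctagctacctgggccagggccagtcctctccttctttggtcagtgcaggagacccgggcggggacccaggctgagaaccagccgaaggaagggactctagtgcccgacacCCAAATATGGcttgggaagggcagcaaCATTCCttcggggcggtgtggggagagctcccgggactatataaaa
Nppb: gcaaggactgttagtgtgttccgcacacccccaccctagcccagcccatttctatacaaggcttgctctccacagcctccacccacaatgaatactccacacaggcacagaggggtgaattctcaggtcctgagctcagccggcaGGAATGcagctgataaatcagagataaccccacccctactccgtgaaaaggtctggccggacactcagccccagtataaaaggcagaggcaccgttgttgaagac
Ankrd1: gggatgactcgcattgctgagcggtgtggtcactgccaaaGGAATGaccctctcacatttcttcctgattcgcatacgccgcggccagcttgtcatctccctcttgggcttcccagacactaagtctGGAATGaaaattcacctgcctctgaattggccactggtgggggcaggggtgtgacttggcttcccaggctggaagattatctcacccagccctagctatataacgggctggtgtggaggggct
Myh7: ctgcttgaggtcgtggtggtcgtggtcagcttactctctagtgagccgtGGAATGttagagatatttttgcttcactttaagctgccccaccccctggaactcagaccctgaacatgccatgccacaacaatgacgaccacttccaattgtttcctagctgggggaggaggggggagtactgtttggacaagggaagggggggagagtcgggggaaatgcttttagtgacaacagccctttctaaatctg

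In Acta1 the CArG box lies 73 to 64 bases before the start and the MCAT element 46 to 41 bases before it. Ankrd1 holds the reverse complement at 2 places, 210 to 205 and 123 to 118 bases before the start, Nppb at 105 to 100 and Myh7 at 201 to 196. Windows were found for 11052 of the 13811 genes, and each was searched on both strands. An MCAT element was present in a window of 6 of the 11 genes of the list (Acta1, Ankrd1, Gdf15, Mybpc2, Myh7 and Nppb), in 17.0% of the risen genes, in 17.6% of the fallen genes and in 13.3% of all genes with a window. A CArG box was present in 5 of the 194 risen genes with a window (Acta1, Egr2, Fhl1, Iah1 and Prune2), in 0 of the 85 fallen genes and in 1.54% of all. The AP-1 motif TGANTCA was found in 11.3% of the risen genes, in 5.88% of the fallen genes and in 5.89% of all. The TATA motif TATAAA was found in 20.6% of the risen genes, in 11.8% of the fallen genes and in 9.43% of all. The motif of estrogen-related receptors, AAGGTCA, was found in 1.55% of the risen genes, in 2.35% of the fallen genes and in 3.75% of all. These motifs were chosen after the values had been seen, no enrichment was tested, and a match of letters is not a binding site.

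The other members of this list sit at the contractile apparatus or in stress signalling. Ankrd1, a stretch-responsive partner of titin, rose from 105 to 415 (3.97-fold). Xirp2, an actin-binding protein of the intercalated disc, went from 5.34 to 19.7 (3.69-fold). Mybpc2, the fast-type myosin-binding protein C, had 2.12 in sham and 6.61 in TAC (3.11-fold). Rcan1 is a feedback inhibitor of the phosphatase calcineurin and is itself switched on by calcineurin. Its signal went from 4.24 to 14.0, or 3.29-fold. Fhl1, a LIM protein of the sarcomere, rose 2.33-fold and the ubiquitin hydrolase Uchl1 2.13-fold, both from sham signals below 1. Gdf15, a secreted stress hormone of the TGF-beta superfamily, went from 0.679 to 10.8 (16.0-fold), against 0.587 and 1.40 at 2 weeks.

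Genes of the Z-disc and of the response to stretch were higher as a group. Of 27 measured, 6 rose, 24 had a ratio above 0, and the median log2 ratio was 0.66. Beside Ankrd1, Xirp2 and Fhl1, the risen genes were Ankrd2, Ankrd23 and Myot. Ankrd2, a relative of Ankrd1 best known from slow skeletal muscle, went from 0.185 to 1.5 (8.10-fold). Ankrd23, the third member of that family, went from 52.6 to 148 (2.82-fold), and its 2 probes gave log2 ratios of 1.47 and 1.49. Myot encodes myotilin, a Z-disc protein that binds filamin, and went from 9.97 to 37.1 (3.72-fold). The Z-disc cap of titin, Tcap, had 923 in sham and 906 in TAC. The intermediate filament desmin (Des) had a log2 ratio of 0.54.

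Among 25 measured sarcomere genes, Acta1, Myh7 and Mybpc2 rose and none fell, and the median log2 ratio was -0.03. The adult cardiac forms stayed within 2-fold. Myh6, the fast alpha-myosin heavy chain, had a signal of 1713 in sham and 1499 in TAC, a log2 ratio of -0.19, and its other probe gave -0.54. Cardiac actin (Actc1) was at 1864 and 1721, and the light chain Myl3 at 2138 and 1897. No spot of any array was saturated. Cardiac troponin I (Tnni3) had a log2 ratio of -0.46 and cardiac troponin T (Tnnt2) one of -0.14.

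**Figure D2:**
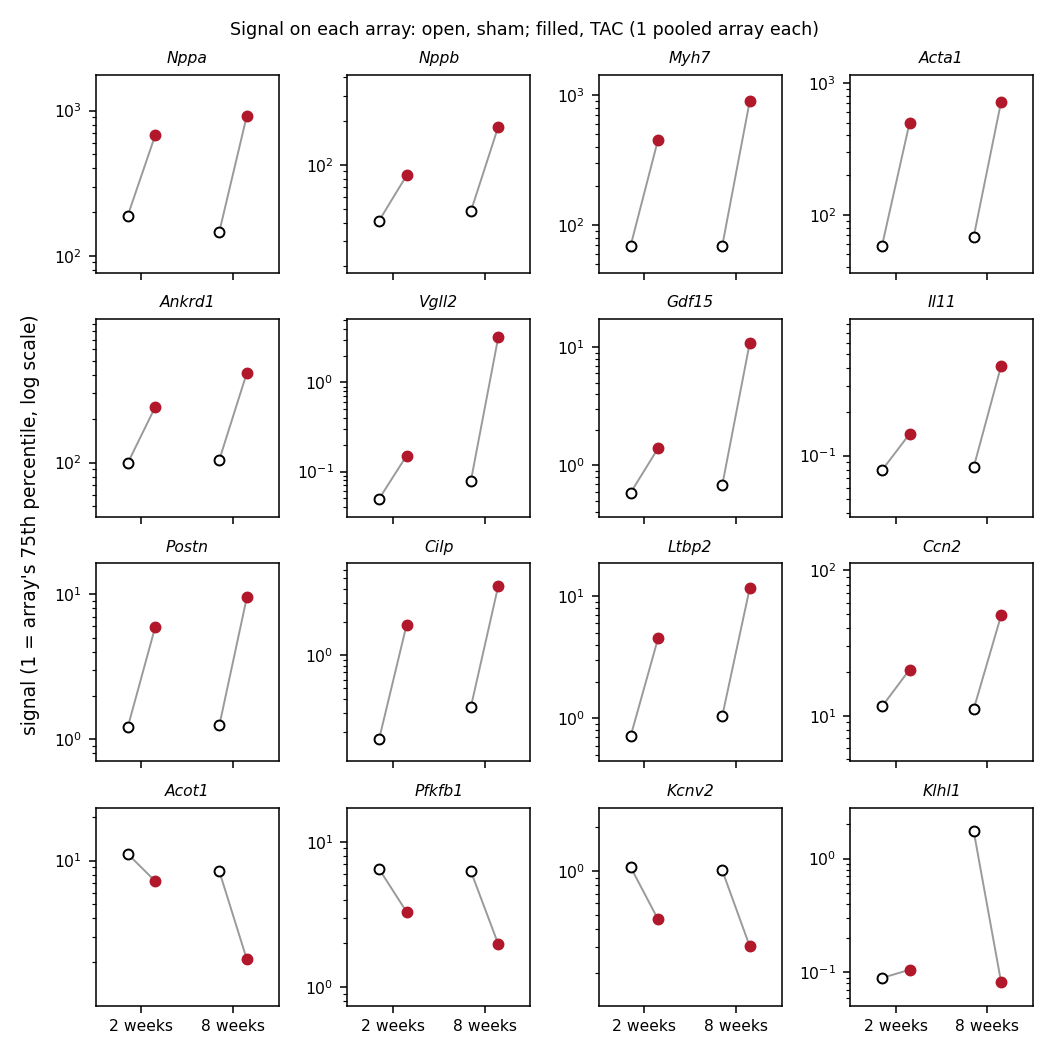
Signal of 16 genes on each of the 4 arrays (vertical axis, log scale, in units of the array's 75th percentile), with sham as open and TAC as filled circles at 2 and 8 weeks, 1 pooled array each. For the 12 genes in the upper rows the sham circles at 2 and 8 weeks differ by less than 2-fold and the TAC circle is highest at 8 weeks. Klhl1, in the lowest row, is bright on the sham 8-week array alone, with a signal of 1.75 there and of 0.106 or less on the others.

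The genes listed as falling in hypertrophy had mostly small ratios below 0. Of 12 measured, 11 were below 0, 1 of them past 2-fold, and the median log2 ratio was -0.35. Only Kcnd2, which encodes a channel of the transient outward potassium current, fell, from 2.38 to 1.16 (a log2 ratio of -1.04), and without scaling it stayed within 2-fold. Its partner subunit Kcnip2 had 2.81 and 1.58 (log2 ratio -0.83), and the beta-1 adrenergic receptor gene Adrb1 had 2.68 and 1.55 (-0.79). Kcnj2, the inward rectifier, was well above background in sham only, and was at least 2.23-fold lower in TAC. The genes of calcium cycling in this list were Atp2a2, the calcium pump of the sarcoplasmic reticulum, its inhibitor Pln, and the release channel Ryr2. Their log2 ratios were -0.37 for Atp2a2, -0.49 for Pln and -0.63 for Ryr2. The exception in direction was Ppargc1a, a coactivator of mitochondrial genes, with 15.3 in sham and 19.0 in TAC (0.31). Over the whole calcium list, none of 24 genes passed 2-fold.

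Genes of the ion channel list were mostly lower. Of 26 measured, 4 fell (15.4%, against 0.883% of all genes) and none rose. A ratio below 0 was found in 21, compared with 51.2% of all genes, and the median log2 ratio was -0.28. Kcnj14, a potassium channel gene outside this list, rose 8.20-fold. Scn10a, a sodium channel gene first known from sensory neurons and linked to cardiac conduction, went from 1.17 to 0.334 (3.51-fold lower). Kcnv2 encodes a silent subunit that modifies potassium channels, and went from 1.01 to 0.304 (3.33-fold lower). Kcnj3 encodes a subunit of the acetylcholine-gated potassium channel of the atria. Its signal was 1.18 in sham and 0.359 in TAC (3.30-fold lower), but 0.577 in the sham pool at 2 weeks. Its partner Kcnj5 had a log2 ratio of -0.80. Of 7 measured genes of the atrial list, 5 had a ratio below 0, and Dkk3 rose 2.25-fold. The atrial light chain Myl7 was well above background in sham only (signal 0.170, at least 3.64-fold lower in TAC), as was sarcolipin (Sln, signal 0.120, at least 2.55-fold lower). Myl4, the other atrial light chain, had 3.85 and 2.69, and Bmp10 was not well above background on either array. Of the 6 markers that define atrial tissue, the 2 measured beside Kcnj3 had a summed signal of 6.93 in sham and 5.30 in TAC, and their part in the lower values of Kcnj3 was not tested. Nppa, which is also made in the atria, is one of the hypertrophy genes that rose, and the atrial content of the pools was not tested.

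Receptors of the sympathetic and hormonal systems showed few changes past 2-fold. In the natriuretic and adrenergic list, 2 of 29 genes rose, the 2 peptides, and Adrb3 fell from 0.158 to 0.0723 (2.19-fold). Dbh encodes dopamine beta-hydroxylase, which makes noradrenaline in sympathetic nerves, and it fell from 6.16 to 1.99 (3.09-fold). Tyrosine hydroxylase (Th), the enzyme at the start of the same pathway, had 2.84 and 2.56. The summed signal of 4 Schwann cell markers went from 2.06 to 1.42, with log2 ratios from -0.90 to 0.29. In the renin-angiotensin list, the receptor gene Mas1 fell from 0.337 to 0.153 (2.20-fold) on its brighter probe, whereas the second probe gave a log2 ratio of -0.70. Ace, the angiotensin-converting enzyme, had a log2 ratio of 0.70 and Agtr1a, the main angiotensin receptor, one of -0.42.

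**Figure D3:**
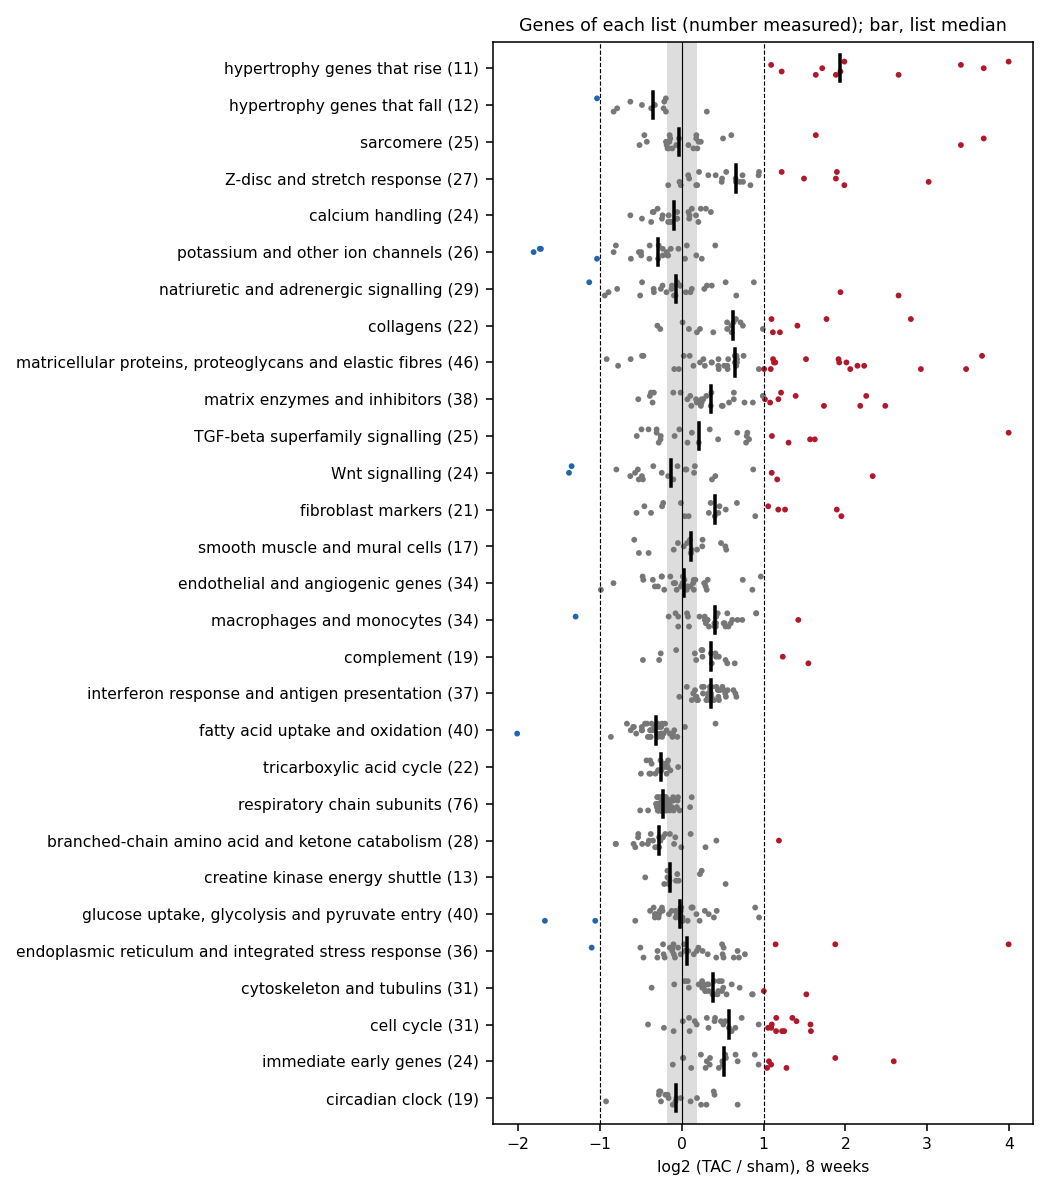
Log2 ratio of TAC to sham at 8 weeks (horizontal axis) for the measured genes of 29 lists, 1 point per gene, with the number measured in brackets and a bar at the list's median. The grey band is the interquartile range over all genes and the dashed lines mark 2-fold. The medians of the matrix, Z-disc, cell cycle and immediate early lists lie right of the band, and the tricarboxylic acid cycle and respiratory chain genes lie as narrow groups left of 0.

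Genes of the extracellular matrix held many of the largest rises. In the list of matricellular proteins, proteoglycans and elastic fibres, 15 of 46 measured genes rose (32.6%, against 1.88% of all genes), none fell, and the median log2 ratio was 0.65. Cilp, a matrix protein named after cartilage and made by cardiac fibroblasts, went from 0.336 to 4.27 (12.7-fold). Ltbp2, which binds fibrillin microfibrils, went from 1.04 to 11.6 (11.1-fold). Periostin (Postn), a protein that marks activated fibroblasts, went from 1.25 to 9.50 (7.59-fold). The fibril-associated genes Mfap4 and Mfap5 rose 4.69-fold and 3.80-fold. Connective tissue growth factor (Ccn2) went from 11.1 to 49.1 (4.43-fold), and its relatives Ccn5 and Ccn1 rose 2.87-fold and 2.13-fold. Of the thrombospondins, Thbs4 rose 4.17-fold, Thbs1 rose 4.04-fold and Comp, the fifth of the family, 3.78-fold. The sham signal of Thbs1 was 0.398 at 8 weeks but 0.181 at 2 weeks. Thbs2 had a log2 ratio of -0.92 and Thbs3 one of 0.66, so the family did not move as 1 block. Fbln2 (2.19-fold), Bgn (2.21-fold), Fbn1 (2.17-fold) and Aspn (2.01-fold) also rose. Tenascin C (Tnc) and osteopontin (Spp1), known from scars, were not well above background on either array.

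Among the collagens, 6 of 22 measured genes rose and the median log2 ratio was 0.62. Col8a1, a short-chain collagen of vessel walls, went from 0.388 to 2.70 (6.97-fold). Col5a2, a fibril component that sets fibril width, went from 0.183 to 0.623 (3.41-fold). Col1a1, the main chain of fibrillar type I collagen, went from 10.9 to 25 (2.30-fold), and Col1a2 lay just under the threshold with 33.3 and 66.2 (1.99-fold). Col14a1 rose 2.66-fold on its brighter probe, whereas its second probe gave a log2 ratio of 0.71. On the brighter probe its sham signal was 0.721 at 8 weeks but 1.37 at 2 weeks. Col9a2 and Col16a1 rose 2.16-fold and 2.14-fold. With the normexp background Col5a2 and Col9a2 stayed under 2-fold. The basement membrane chains Col4a1 and Col4a2 and the type III chain Col3a1 were within 2-fold, with log2 ratios of 0.63, 0.66 and 0.75.

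Enzymes that build and cut the matrix, and their inhibitors, rose in 9 of 38 cases, with a median log2 ratio of 0.36. Timp1, an inhibitor of matrix metalloproteinases, went from 0.774 to 4.34 (5.61-fold). Adamtsl2, a microfibril-associated relative of the ADAMTS proteases, went from 1.20 to 5.71 (4.77-fold). Of the proteases, Adamts8 rose 4.54-fold on 1 probe, while its other probe gave a log2 ratio of 0.15. Adamts4 (2.63-fold), Mmp23 (2.32-fold), Adamts1 (2.11-fold) and Adamts2 (2.02-fold), and the collagen cross-linking oxidase Loxl2 (2.27-fold), also rose. The 3 probes of Loxl2 gave log2 ratios from 0.40 to 1.18, and their mean stayed under 2-fold.

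In TGF-beta signalling, 5 of 25 measured genes rose and none fell, 10 had a ratio below 0, and the median log2 ratio was 0.21. The 5 were ligands or binding proteins, and the measured receptors and SMADs stayed within 2-fold. The ligand Tgfb2 went from 1.49 to 4.43 (2.97-fold), and Inhba, a subunit of activin, rose 2.15-fold. Tgfb1 and Tgfb3 had log2 ratios of 0.07 and 0.79. The follistatin-like genes Fstl3, which binds activin, and Fstl1 rose 3.09-fold and 2.47-fold, and Gdf15, also in this list, has been given above. The receptor Tgfbr1 had a log2 ratio of 0.68 and the signal carrier Smad3 one of -0.31. In the Wnt list, the secreted binding proteins moved both ways. Frzb rose 5.04-fold (0.0754 to 0.380), Dkk3 rose 2.25-fold and Sfrp1 2.14-fold, while Wif1 fell 2.60-fold and Sfrp5 fell 2.54-fold. The sham signal of Dkk3 was 0.791 at 8 weeks but 0.327 at 2 weeks. With the normexp background all 5 stayed within 2-fold. They are antagonists or modulators of Wnt ligands outside the cell, and no Wnt receptor among the 24 measured genes passed 2-fold.

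Of the IGF axis and growth factors, 4 of 36 genes rose (11.1%, against 1.88% of all genes) and none fell. Il11, a cytokine of the interleukin-6 family, went from 0.0830 to 0.415 (a log2 ratio of 2.32), against 0.0794 and 0.141 at 2 weeks. Hbegf, a ligand of the EGF receptor, went from 3.45 to 9.20 (2.67-fold), and the IGF-binding proteins Igfbp7 and Igfbp2 rose 2.32-fold and 2.23-fold. The IGF-binding genes Igfbp5 and Igfbp6 had log2 ratios of 0.88 and 0.82, and Igf1 one of 0.63.

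Fibroblast genes moved unevenly. Among 21 fibroblast genes 5 rose, with a median log2 ratio of 0.40. Nox4, an NADPH oxidase, rose 3.87-fold from a sham signal of 0.0989, and the transcription factor Meox1 went from 2.12 to 7.90 (3.72-fold). Pi16, a marker of adventitial fibroblasts, rose 2.40-fold, Pdgfrl 2.27-fold and the tendon transcription factor Scx 2.08-fold. Of 7 general fibroblast markers, all measured, Col1a1 alone rose. Pdgfra had a log2 ratio of 0.40, Dpt one of -0.24 and Tcf21, a transcription factor of resting fibroblasts, one of -0.55. Of 7 markers of activated fibroblasts, Cilp, Postn, Comp and Meox1 rose, Fap had a log2 ratio of 0.33, Acta2 one of -0.40, and Cthrc1 was not measured.

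The summed signals of the cell type markers set these values in the mixture of cells. For 8 cardiomyocyte markers the sum went from 6930 in sham to 6105 in TAC, with every marker below 0 (median log2 ratio -0.20). The general fibroblast sum went from 225 to 317, and the macrophage sum from 40.7 to 52.5. The endothelial sum was 74.4 and 73.0, the smooth muscle and mural sum 65.2 and 62.6, and the erythroid sum 501 and 529. The sum for lymphocytes, with 4 of 6 markers measured, was 5.36 and 4.84. Of the defining markers of fat, Ucp1, Elovl3, Adipoq, Lep and Plin1 were not measured on both arrays, and neither were the skeletal myosins Myh1, Myh2 and Myh4. The labelled tissue was borne out by the cardiomyocyte markers, all of which were measured. The part that cell numbers had in the higher levels of matrix and macrophage genes was not tested.

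**Figure D4:**
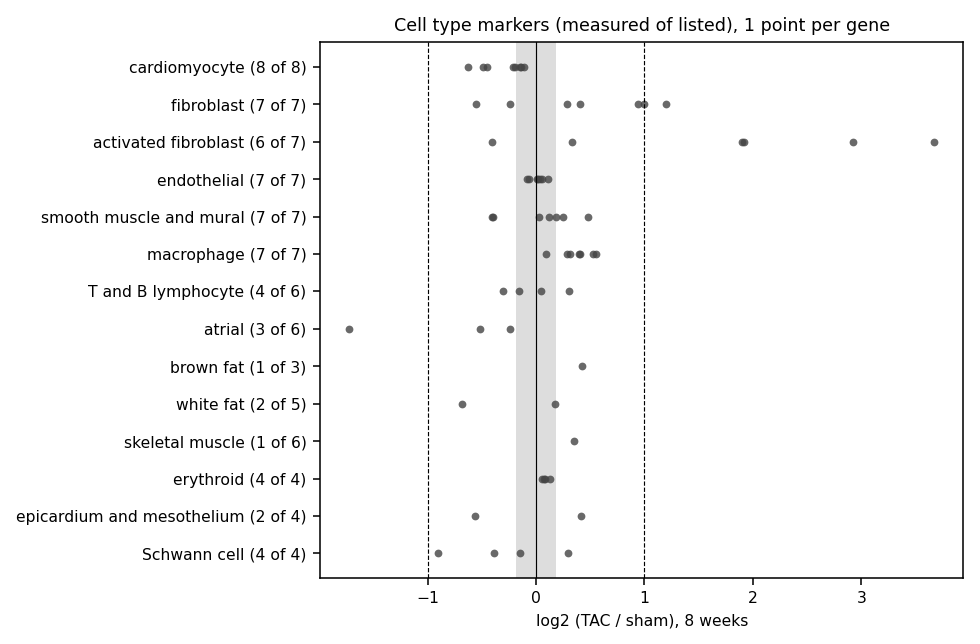
Log2 ratio of TAC to sham at 8 weeks (horizontal axis) for the measured markers of 14 cell types, 1 point per gene, with the numbers measured and listed in brackets. The grey band is the interquartile range over all genes and the dashed lines mark 2-fold. The activated fibroblast markers spread from -0.40 to 3.67, the macrophage markers from 0.09 to 0.56, and the endothelial markers from -0.08 to 0.11.

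The immune lists differed in the share of their genes past 2-fold. Of 34 macrophage and monocyte genes, 29 (85.3%) had a ratio above 0, compared with 48.8% of all genes, with a median log2 ratio of 0.41. Past 2-fold were 1 higher and 1 lower (2.94% each, against 1.88% and 0.883% of all genes). Clec4d, a lectin receptor, rose from 0.0987 to 0.265 (2.69-fold), and Retnla, a marker of alternatively activated macrophages, fell from 4.02 to 1.64 (2.46-fold). Cd14 and Lgals3 lay just under the threshold, each with a log2 ratio of 0.91. Of 23 genes of lymphocytes, granulocytes and mast cells, 10 had a ratio below 0, the lowest being Cd8b1 at -0.72, and the median log2 ratio was 0.03. The only 2 past 2-fold (8.70%, against 1.88% of all genes) were granulocyte genes, and both rose. S100a8 rose 4.51-fold (0.195 to 0.877) and S100a9 rose 3.99-fold (0.652 to 2.60). These 2 genes encode the subunits of calprotectin, a protein abundant in neutrophils.

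Among 21 chemokines, 4 rose (19.0%, against 1.88% of all genes) and 1 fell (4.76%, against 0.883%). The risen genes were Cxcl10 (2.48-fold), Ccl8 (2.30-fold), Ccl12 (2.21-fold) and Ccl5 (2.18-fold), all from sham signals below 1. All 4 stayed under 2-fold with the normexp background. The sham signal of Cxcl10 was 0.166 at 8 weeks but 0.302 at 2 weeks. Ccl11, the eotaxin that draws eosinophils, fell from 0.382 to 0.0631 (6.05-fold), and it was also lower in TAC at 2 weeks, with 0.301 and 0.0704. In the complement list, 2 of 19 genes rose (10.5%, against 1.88% of all genes). C4b went from 4.11 to 9.66 (2.35-fold) and Cfb, a factor of the alternative pathway, rose 2.92-fold. C3 had a log2 ratio of -0.47. The 37 genes of the interferon response and antigen presentation gave another pattern. None passed 2-fold, but 36 had a ratio above 0, and the median log2 ratio was 0.35, compared with 0.09 at 2 weeks. The highest were Ciita (0.67) and Irf8 (0.66), regulators of antigen presentation and of myeloid cells. The same genes differed between the sham arrays by a median of -0.14 (8 weeks minus 2 weeks), so their sham level at 8 weeks was also lower.

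Genes of mitochondrial metabolism had small ratios below 0 in nearly every case. In the list of fatty acid uptake and oxidation, 38 of 40 genes had a ratio below 0, compared with 51.2% of all genes, and the median log2 ratio was -0.32, which stayed between -0.37 and -0.15 under all alternatives of scaling, background and filter. Acot1, an acyl-CoA thioesterase of the cytosol, was the only one to fall, from 8.42 to 2.09 (4.03-fold), against 11.1 and 7.22 at 2 weeks. Its mitochondrial relative Acot2 had a log2 ratio of -0.62. Hadha and Hadhb, the subunits of the trifunctional protein of beta-oxidation, had log2 ratios of -0.45 and -0.38, and Acadm, which starts on medium-chain fatty acids, had -0.41. Cpt1b, the gate for fatty acids into mitochondria, had -0.22. The lipase inhibitor Angptl4 had a log2 ratio of -0.87, and the uncoupling protein gene Ucp2 (0.41) was the highest of the list.

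All 22 genes of the tricarboxylic acid cycle and 74 of 76 respiratory chain genes had a ratio below 0 as well, and none of them passed 2-fold. The cycle's median was -0.25 (-0.25 to -0.08 under the alternatives) and that of the chain was -0.22 (-0.22 to -0.06). The range within these lists was narrow. For the cycle it ran from -0.50 (Idh3g, a subunit of isocitrate dehydrogenase) to -0.04 (Idh2), and for the chain from -0.51 (Cox7a1, the muscle form of a cytochrome oxidase subunit) to 0.12 (Ndufb3). Over all genes, the 408 with a sham signal over 100 had a median log2 ratio of -0.09. The 2338 with one over 10 and up to 100 had a median of -0.0005. The brighter group holds genes of these lists, such as Idh2 with a sham signal of 700, and the part of brightness was not tested. In the cycle 15 of 22 genes and in the chain 72 of 76 lay within 0.30 of 0, which is 2 SDs of the ratio between spots. The loss of branched-chain amino acids and ketone bodies followed the same direction in 24 of 28 genes (median -0.28). Its exception was Bdh1, the enzyme that interconverts the 2 main ketone bodies, which rose from 30.3 to 68.9 (2.28-fold), and its 3 probes gave log2 ratios between 1.18 and 1.28.

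Glucose metabolism showed no common direction (median -0.02 over 40 genes, a median that turns above 0 with the array median or with no scaling). Within it, Pfkfb1, an enzyme that sets the level of a fructose bisphosphate that acts as a regulator of glycolysis, fell from 6.29 to 1.97 (3.19-fold). Pdp2, the phosphatase that switches on pyruvate dehydrogenase, fell from 4.53 to 2.18 (2.08-fold). The lactate transporter gene Slc16a3 and the phosphofructokinase Pfkp had log2 ratios of 0.95 and 0.90. The insulin-sensitive glucose transporter gene Slc2a4 had one of -0.33. Among the metabolic regulators, Dio2 rose and the other 24 stayed within 2-fold. Dio2 encodes the deiodinase that makes active thyroid hormone, and its signal went from 0.0887 to 1.11 (12.5-fold). The thyroid hormone receptor genes Thrb and Thra had log2 ratios of -0.62 and -0.24.

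Growth and stress genes rose in several groups. Of 31 cell cycle genes 11 rose (35.5%, against 1.88% of all genes), none fell, and the median log2 ratio was 0.58, compared with 0.20 at 2 weeks. They included Rrm2, a subunit of the enzyme that makes deoxynucleotides, with 0.526 and 1.57 (2.99-fold), and the mitotic cyclin Ccnb1, with 0.105 and 0.312 (2.98-fold). Mki67, a common marker of dividing cells, went from 0.881 to 2.06 (2.34-fold). Prc1, Ccnb2, Birc5, Cdc20, Cenpe, Ccna2 and Cdkn3, which serve mitosis, rose between 2.08-fold and 2.64-fold. Cdkn1a, an inhibitor of the cycle, rose 2.22-fold on its brightest probe, with log2 ratios from 0.52 to 1.15 over 3 probes. Top2a and Bub1b were well above background in TAC only, and were at least 2.28-fold and 2.14-fold higher. In which cells these transcripts were made was not tested. Of the 11 rises, those of Ccna2, Ccnb1, Ccnb2, Cdc20, Cdkn3, Cenpe and Prc1 stayed under 2-fold when the background was corrected by normexp.

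Of the immediate early genes, 6 of 24 rose (25%, against 1.88% of all genes). Egr2, a zinc finger factor, went from 0.149 to 0.897 (6.03-fold), and Atf3, a factor of stress signalling, from 2.76 to 10.1 (3.67-fold). At 2 weeks the signals of Atf3 were 1.16 in sham and 1.86 in TAC, so its sham level also differed by more than 2-fold. Fos rose 2.43-fold, Maff 2.13-fold, Btg2 2.09-fold and Myc 2.06-fold. In the list of endoplasmic reticulum and integrated stress genes, 3 of 36 rose, or 8.33% (Gdf15, Atf3 and the folate enzyme Mthfd2, 2.22-fold). Aldh1l2, another mitochondrial folate enzyme, fell 2.14-fold, and the chaperone Hspa5 had a log2 ratio of -0.30. Of 37 genes of oxidative stress defence, Nox4 and the metallothionein Mt2 rose. Mt2 had 19.0 and 66.9 (3.51-fold), but 56.8 in sham at 2 weeks, so that its sham level differed between the arrays by more than 2-fold. In the cytoskeleton, 29 of 31 genes had a ratio above 0, compared with 48.8% of all genes (median 0.38). Enah, an actin regulator of the intercalated disc, rose 2.87-fold, and Tubb2b, a tubulin, was at the threshold, with 1.14 and 2.28.

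Among 32 cardiac transcription factor genes, the largest rise of all 13811 genes stood out. Vgll2, a cofactor of TEAD factors known from skeletal muscle, had a signal of 0.0778 in sham and 3.22 in TAC, a 41.4-fold rise (log2 ratio 5.37). At 2 weeks it was 0.151 in TAC and not well above background in sham. Sox9, a factor of cartilage and valve formation, rose 2.67-fold. Tbx5, which acts in conduction and the atria, had a log2 ratio of -0.93. One of the skeletal muscle markers also rose, the fast light chain Myl1, from 13.8 to 37.9 (2.74-fold), while Tnni2, Pvalb, Tnnc2 and Atp2a1 had log2 ratios between -0.54 and -0.41.

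Some of the 15 largest rises stood in no list. Aqp8, a water channel, went from 2.01 to 14.5 (7.24-fold). Kcnj14, an inward rectifier potassium channel, went from 0.0668 to 0.548 (8.20-fold). Sprr1a, a small proline-rich protein of stressed cells, went from 0.103 to 0.701 (6.78-fold), with 0.140 and 0.176 at 2 weeks. Tdpoz2 had 0.0828 and 0.748, and its signal on the TAC 8-week array was over 2-fold above each of the other 3 arrays, as was true of 57 of the 260 risen genes.

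Of the 15 largest falls, only 4 were not bright on the sham 8-week array alone. Among them were Ccl11, Acot1 and Scn10a, given above. The 11 others were Klhl1, Tas2r117, Sohlh1, Trim43b, Cep41, Cdc6, Mettl21c, Mapkbp1, Nat8l, Zfp85 and Nxnl2. Their sham 8-week signals ran from 0.242 (Zfp85) to 1.75 (Klhl1), and their sham 2-week signals from 0.0258 (Cdc6) to 0.176 (Mettl21c). All 11 had a higher signal on the sham 8-week array than on both 2-week arrays by more than 2-fold, so the falls rest on that array, and no cause was tested. The probes of Cep41 and Zfp85 did not act alike, since another probe of each gave log2 ratios of 0.23 and 0.05.

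The pairs at 2 and at 8 weeks share no array, so their ratios can be set side by side. Across 13512 genes measured on all 4 arrays, Pearson's r between the log2 ratios was 0.60, as a description, since genes are not independent. Of the 244 risen genes measured on all 4 arrays, 228 (93.4%) had a ratio above 0 at 2 weeks, compared with 48.6% of all genes, and 71 (29.1%) had already passed 2-fold. In 231 of the 244 the ratio was larger at 8 weeks, with a median of 0.79 at 2 weeks and 1.30 at 8 weeks. These genes were picked by their 8-week ratio, which by itself favours a larger value at that time. No growth between the times can be read from this. Of the 113 fallen genes, 98 (86.7%) were below 0 at 2 weeks, compared with 51.4% of all genes, and 26 (23.0%) had passed 2-fold. In the other direction, 58.2% of the 122 genes over 2-fold higher at 2 weeks, and 40% of the 65 lower, were past 2-fold in the same direction at 8 weeks. These shares describe a selection made on 1 array pair and seen again in the other. Cilp, Acta1 and Egr2 had similar ratios at both times, with 3.45, 3.09 and 3.07 at 2 weeks. Gdf15 (1.25), Ccn2 (0.84), Il11 (0.83), Sprr1a (0.33) and Acot1 (-0.62) had smaller ones at 2 weeks than at 8 weeks.

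**Figure D5:**
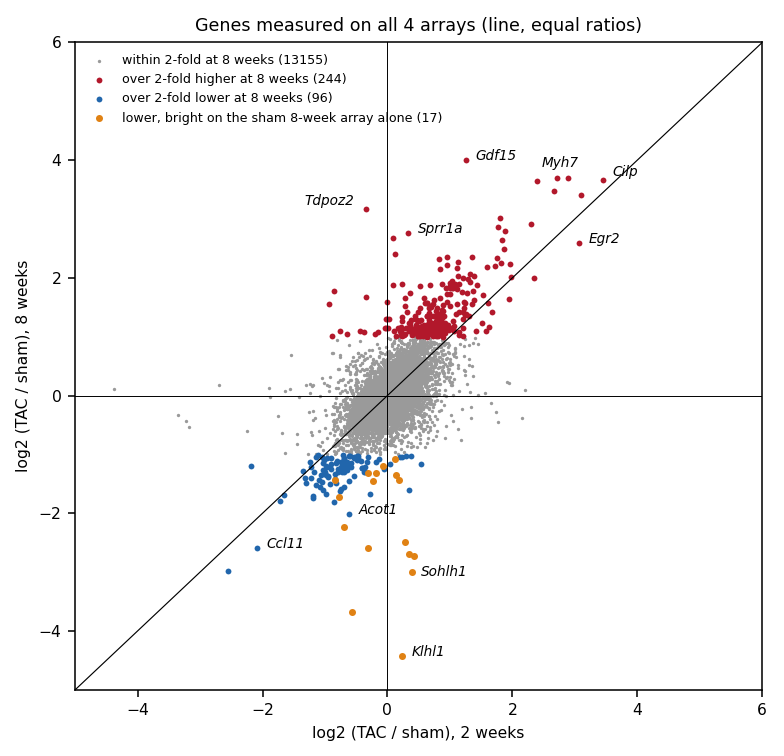
Log2 ratio of TAC to sham at 8 weeks (vertical axis) against that at 2 weeks (horizontal axis) for 13512 genes measured on all 4 arrays, with the line of equal ratios. Red, blue and orange points are as in the plot of ratio against signal. Most of the 244 red points lie above the line and right of 0, and the orange points lie closer to 0 at 2 weeks than at 8 weeks. These points were picked by their 8-week ratio, which by itself favours a larger size at 8 weeks.

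Some genes had only a bound. In all, 439 genes were well above background on the TAC array alone and 294 on the sham array alone. By the bound, 24.4% of the former were at least 2-fold higher in TAC and 29.3% of the latter at least 2-fold lower. Another 5218 genes with a probe were not well above background on either array, and 7 were measured by different probes on the 2 arrays. Of 40 risen genes with more than 1 measured probe, all probes pointed the same way in 36 and all passed 2-fold in 16. For the fallen genes these counts were 22 and 11 of 29.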

How the data were processed

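Total RNA of mouse hearts, pooled per group, was labelled with Cy3 and hybridized to 4 one-color arrays that shared 1 slide and 1 scan. The deposited scanner files hold spot intensity, background-corrected by the authors with Agilent Feature Extraction (version 10.7.3.1 in the file headers, 9.1 in GEO's tool list). Each array's processed intensity was averaged over spots of a probe, without spots marked as outliers, taken as log2 and set relative to the 75th percentile of all probes that were not controls (Python 3.11.15, pandas 2.3.3, numpy 2.4.6). Raw 75th percentiles were 206 to 248 intensity units, and 54.7% to 58.5% of probes were well above background.

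Probes were assigned to protein-coding genes through their accessions, 25874 in RefSeq and 1027 in GENCODE. For a gene with several probes, that with the highest mean signal on the 8-week arrays was used among those well above background on both. Where 1 array alone was above background, the bound was the measured signal over the higher of the dim probe's own signal and the other array's lowest signal among probes well above background.

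The genes to be named were the 15 largest rises and falls, list members past 2-fold, the 2 genes of highest sham signal in each list and the members of both hypertrophy lists, and other genes in the text were chosen after their values were seen. Members and all 42 gene lists were chosen with earlier results of these data known. Alternatives were quantile normalization, the array median, no scaling, normexp with an offset of 50 (limma 3.58.1, R 4.3.3), the mean over probes, other filters, other folds and the authors' value table. The calculation was tested on simulated data. A few genes that the naming rule selects are not reported here. The arrays' number limits the precision: with 1 array per group no test was made.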

Additional observations from a re-analysis of the deposited data

Results flagged for a closer look

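Of 205 named genes measured on all 4 arrays, 4 had ratios of opposite direction at 2 and 8 weeks, each larger than 2 SDs of the ratio between spots of a probe. Tdpoz2 had a log2 ratio of 3.17 at 8 weeks and -0.34 at 2 weeks. Cep41 had -2.70 and 0.35, Sohlh1 had -3.00 and 0.39, and Trim43b had -2.72 and 0.42. The difference between the times was not tested, since each is a single array pair. The 8-week values of Cep41, Sohlh1 and Trim43b come from a high signal on the sham 8-week array, and that of Tdpoz2 from a high signal on the TAC 8-week array. Over all 13512 genes, 170 met the same criterion, and of the 42 list medians 0 did.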

How the results depend on the processing

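The count of genes over 2-fold higher, 260, was 123 with the normexp background, 685 without the filter on background, 764 at 1.5-fold and 82 at 3-fold. The count of those lower, 122, was 32, 745, 532 and 26 under the same settings. Scaling by quantiles, by the array median or not at all, the mean over probes, stricter signal filters and the value table gave 215 to 385 higher and 82 to 122 lower. The share of rises among genes past 2-fold, 68.1%, was 79.4% with normexp and 47.9% without the filter. Leaving out genes bright on 1 array alone, an alternative chosen after seeing the data, gave 203 and 99. Zfp85 turned to a log2 ratio of 0.0527 when a probe had to be above background on all 4 arrays, since another of its probes was then used. Of 127 named genes past 2-fold, 82 stayed so with normexp, and between 122 and 125 did under each other scaling and with the mean over probes. The number of lists with a median beyond 2 SDs of the ratio between spots was 16, and 11 to 18 under the alternatives. Each group was 1 pool, so no array could be left out and no spread between mice was measured. No paired analysis was possible because each group had 1 array.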

Other observations

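Several genes outside the lists also passed 2-fold, and they were chosen here after their values had been seen. Inmt, a methyltransferase of small amines, had a signal of 5.47 in sham and 1.59 in TAC at 8 weeks, and 5.02 and 1.52 at 2 weeks. Ano10, of the anoctamin family, had 17.8 and 5.51, and 19.7 and 6.24 at 2 weeks. Lgals4, a galectin, had a log2 ratio of -1.48 at 8 weeks and -1.05 at 2 weeks. All 3 were lower in TAC at both times. Nmrk2, a kinase that makes a precursor of NAD, had 2.40 in sham and 11.5 in TAC, and 4.53 and 9.96 at 2 weeks. Penk, which encodes the precursor of enkephalins, had a log2 ratio of -1.70. The interferon-inducible gene Ifi207 had a log2 ratio of 2.68 at 8 weeks and 0.09 at 2 weeks, whereas none of the 37 listed interferon and antigen presentation genes passed 2-fold.

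Of the circadian clock genes, 4 at 2 weeks were over 2-fold lower in TAC and the list's median log2 ratio was -0.33, while at 8 weeks none passed 2-fold and the median was -0.08. Dbp, an output gene of the clock, had -1.26 at 2 weeks and -0.28 at 8 weeks. The sham arrays differed as well, with a median of -0.17 over the list (8 weeks minus 2 weeks) and Dbp signals of 71.4 at 2 weeks and 44.8 at 8 weeks. The hour at which hearts were taken is not given in the sources used here, and the difference between the times was not tested.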
